A study of Rattus norvegicus with 12 samples.

Results

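Cdc42 and its Borg effectors are 6 of the 16511 genes counted in rat mammary glands, namely the small GTPase gene Cdc42 and the effector genes Cdc42ep1, Cdc42ep2, Cdc42ep3, Cdc42ep4 and Cdc42ep5. The family was selected on a result of these same libraries, since Cdc42ep1 was higher with the high fat butter diet and its diet groups did not overlap. The members' diet differences are therefore given as a description, with no test. All 6 genes passed the filter on low counts.

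By the labels the samples were snap-frozen mammary glands from offspring at PND21 (postnatal day 21), with 6 libraries in each of 2 diet groups and 1 gland taken per litter. In the HFB group the dams had received the high fat butter diet in pregnancy, and in the CTL group the control AIN diet, and the newborns of both groups were raised on AIN. The sources do not agree on when the prenatal diets ended, nor on the samples. The study's methods describe laser-captured epithelium from glands of the butter diet with or without bisphenol A, whereas the labels, which are followed here, give mammary gland and the diets HFB and CTL. Libraries are named by diet and library number, HFB 1 to HFB 6, CTL 7 to CTL 11 and CTL 14. Total counts per library lay between 2320267 and 2760871 in the HFB group and between 2403464 and 2944680 in the CTL group. Levels are given in CPM, the unit to which edgeR scales counts by each library's total and its TMM factor. A floor of 3 counts corresponded to between 1.02 and 1.29 CPM by library totals. In all 12 libraries adipocyte markers summed to 14439 CPM or more and fibroblast markers to 23784.5 CPM or more, and mammary epithelial markers to at most 675.9 CPM, so the libraries do not hold RNA of epithelium alone. The diets rest on the labels, and the tables do not settle which account of them applies.

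Cdc42 switches between an inactive GDP-bound and an active GTP-bound form and controls actin filaments, filopodia and cell polarity, including the apical and basal sides of epithelial cells. The Borg proteins bind the GTP-bound form through a short CRIB motif, and they also bind septins, proteins that assemble into filaments near actin and the membrane. Borg5 is encoded by Cdc42ep1, Borg1 by Cdc42ep2, Borg2 by Cdc42ep3, Borg4 by Cdc42ep4 and Borg3 by Cdc42ep5.

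A few libraries, from both diets, stood apart from the rest. On the first principal component of the 9382 genes tested, which held 57.5% of the variance, HFB 6 lay at 101.57, CTL 14 at 68.49 and HFB 5 at 28.48, and the other 9 libraries between -31.47 and -16.6. HFB 6 and CTL 14 also had the lowest mean correlation with the other libraries, 0.804 and 0.845, and HFB 5 the next lowest, 0.909. The 7 adipocyte markers summed to 17769 CPM in HFB 6 and 14439 CPM in CTL 14, against 27373 to 34763 CPM in the other 10 libraries, with Fabp4 the most abundant. The 7 lymphoid markers found in the table summed to 955.3 and 873.0 CPM in these libraries, with Cd79b the most abundant. In any other library they summed to at most 154.2 CPM. Only 2 of the 7 passed the filter on low counts, and the 7 summed to 4.2 CPM in CTL 11, so low lymphoid values rest on few counts. The 6 smooth muscle and pericyte markers summed to 1298 and 1288 CPM in HFB 6 and CTL 14, against at most 453.8 CPM in any other library. HFB 5 did not share these levels of adipocyte, lymphoid and smooth muscle markers, at 34763, 16.6 and 372.5 CPM. Markers of several cell types were thus counted in every library, and fewer cells of a type and less RNA per cell cannot be told apart in any of these values.

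The 7 mammary epithelial markers found in the table summed to between 117.2 CPM in HFB 1 and 675.9 CPM in HFB 6, with Krt8 the most abundant. The 3 libraries that stood apart had the highest of these sums, with 655.4 CPM in CTL 14 and 615.4 CPM in HFB 5, against at most 522.3 CPM in the other 9. Correlations of the members with an epithelial score are given below. The share of a member's level that comes from epithelial RNA was not tested. No marker found in the table was at 0 in all 12 libraries, while Krt5, Cd79a, Kdr, Vwf, Acta2 and Hba1 of the marker lists were not analysed here.

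Cdc42, the GTPase itself, was at about the same level in both diets except in the 3 libraries that stood apart. Its levels in the HFB libraries ran from 85.8 CPM in HFB 6 to 326 CPM in HFB 2, with a median of 270.1 CPM, and in the CTL libraries from 153.5 CPM in CTL 14 to 294 CPM in CTL 10, with a median of 269 CPM. The means were 236 ± 89.6 CPM with HFB and 254 ± 51.3 CPM with CTL (SD, n = 6). HFB 6, CTL 14 and HFB 5, at 172.9 CPM, were the lowest of the 12, and the other 9 libraries lay between 257 and 326 CPM. The diet groups overlapped, and the log2 fold change of HFB over CTL was -0.11 (SE 0.27, n = 6 per diet). Without HFB 5, HFB 6 and CTL 14, a set chosen after seeing the data, it was 0.08 (SE 0.0985), so its sign rests on those libraries.

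Cdc42ep1, the member on which the family was chosen, had levels of 101.7 to 145.1 CPM in the HFB libraries with a median of 114 CPM, and of 74.2 to 96.8 CPM in the CTL libraries with a median of 86.5 CPM. The lowest HFB library, HFB 4, lay at 101.7 CPM and the highest CTL library, CTL 8, at 96.8 CPM, so all 6 HFB libraries were above all 6 CTL libraries by a narrow margin. HFB 5 and HFB 6 were the highest of the 12. The means were 118 ± 16.4 CPM with HFB and 86.5 ± 8.09 CPM with CTL (SD, n = 6). The log2 fold change was 0.45 (SE 0.12, n = 6 per diet), and it was 0.34 (SE 0.10) without HFB 5, HFB 6 and CTL 14. The separation depended on the scaling, since with library totals alone HFB 2, at 93.6 CPM, fell under CTL 14, at 99.9 CPM, and 5 of 6 HFB libraries stayed above the CTL group. The fold change was then 0.35 (SE 0.12), while the median log2 fold change of all genes tested moved to -0.10.

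Among the 9382 genes tested, 3 had non-overlapping groups with HFB higher (0.032%) and 7 with CTL higher (0.0746%). Cdc42ep1 was the only family member among them, and since the rule used this contrast nothing is read from its place there. The other HFB-higher genes, Fxyd2 (22.2 CPM against 13.6 CPM on average), a regulator of the sodium pump, and Zfpm1 (17.3 CPM against 12.5 CPM), a cofactor of GATA factors, were named after their values had been seen. edgeR called 0 of the 9382 genes between the diets (0%) at an adjusted p under 0.05, with 220 genes at an unadjusted p under 0.05. DESeq2 and limma-voom with sample quality weights also called 0, with 271 and 613 genes at an unadjusted p under 0.05. In simulated counts with known changes, the edgeR test called 46.8% of 2-fold and 88.4% of 4-fold changes. The 0 calls therefore do not show that levels were equal between the diets.

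**Figure D1:**
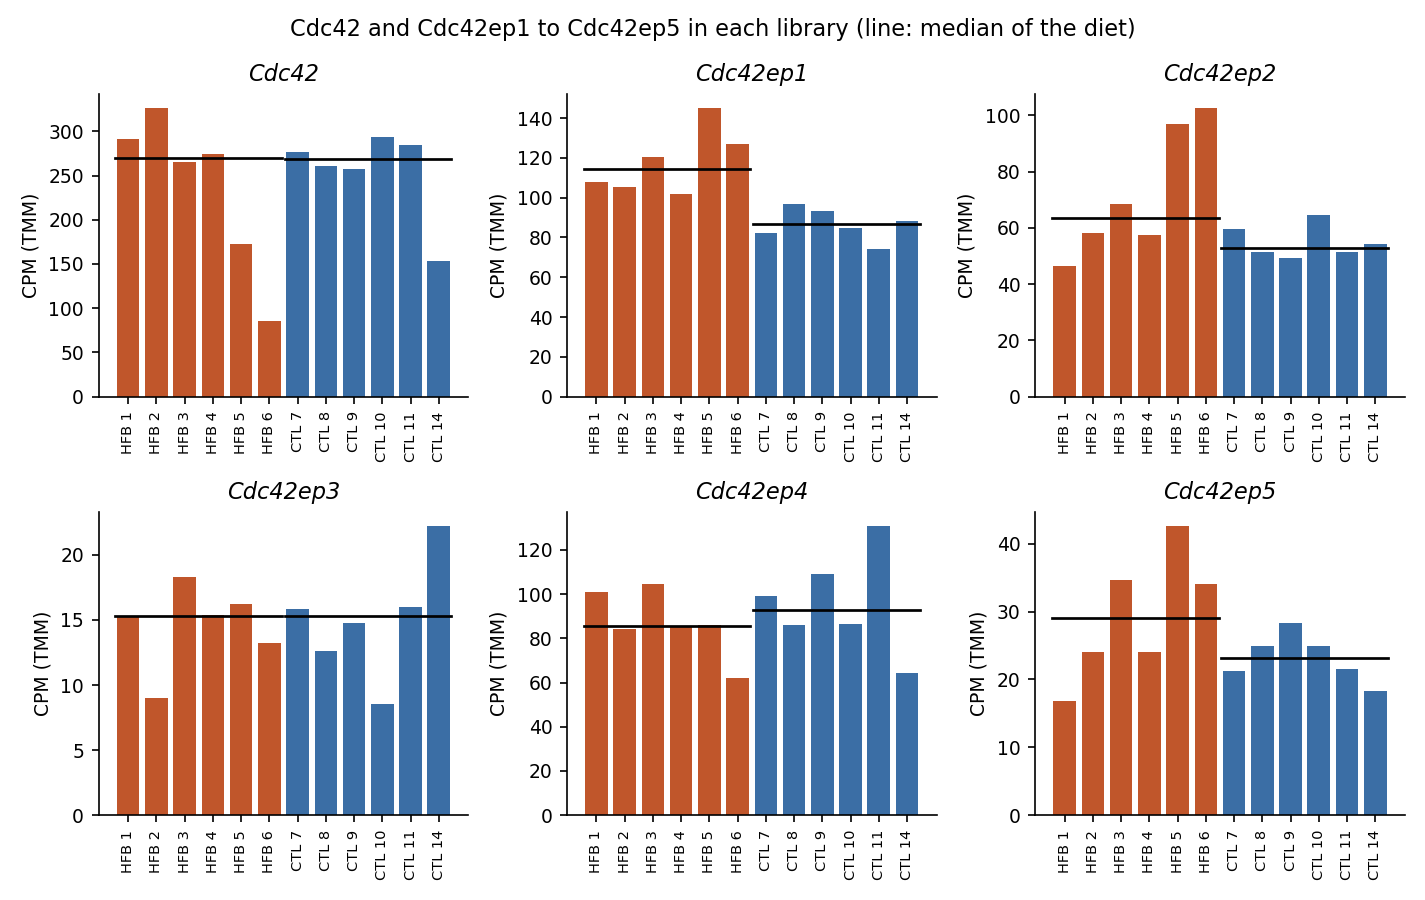
Each panel plots 1 member, with the 12 libraries on the x axis, CPM on the y axis (each panel with its own scale from 0), HFB in orange and CTL in blue, and a black line at the median of each diet. Cdc42 was lowest in HFB 6, CTL 14 and HFB 5, and Cdc42ep1 was at 101.7 CPM or more in every HFB library and at 96.8 CPM or less in every CTL library.

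Cdc42ep2 (Borg1) and Cdc42ep5 (Borg3) also had higher HFB medians, with 5 of 6 HFB libraries above the CTL median for each. Cdc42ep2 ran from 46.5 CPM in HFB 1 to 102.6 CPM in HFB 6 with a median of 63.5 CPM, and from 49.1 to 64.6 CPM in the CTL libraries with a median of 52.8 CPM. HFB 6, HFB 5 (97.1 CPM) and HFB 3 (68.6 CPM) were above the highest CTL library, and the groups overlapped. The log2 fold change of Cdc42ep2 was 0.38 (SE 0.19, n = 6 per diet), and without HFB 5, HFB 6 and CTL 14 it was 0.06 (SE 0.13).

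Cdc42ep5 ran from 16.9 CPM in HFB 1 to 42.6 CPM in HFB 5 with a median of 29.0 CPM, and from 18.3 to 28.3 CPM in the CTL libraries with a median of 23.2 CPM. Again 3 HFB libraries, HFB 5, HFB 3 (34.7 CPM) and HFB 6 (34.1 CPM), were above the highest CTL library, and the groups overlapped. Its log2 fold change was 0.34 (SE 0.22, n = 6 per diet), and 0.05 (SE 0.19) without HFB 5, HFB 6 and CTL 14.

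Cdc42ep4 (Borg4) had a median of 85.7 CPM in the HFB libraries, between 62.1 CPM in HFB 6 and 104.5 CPM in HFB 3, and of 92.7 CPM in the CTL libraries, between 64.1 CPM in CTL 14 and 130.6 CPM in CTL 11. Its lowest values were in the same pair of libraries that had the least adipocyte marker RNA, and the diet groups overlapped. The log2 fold change was -0.14 (SE 0.17, n = 6 per diet).

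Cdc42ep3 (Borg2) was the member with the fewest counts, 21 to 63 per library, and its medians were 15.3 CPM in both diets. It ran from 9.0 to 18.3 CPM in the HFB libraries and from 8.53 CPM in CTL 10 to 22.2 CPM in CTL 14. The log2 fold change of -0.04 (SE 0.24, n = 6 per diet) was smaller than its error and took the other sign without HFB 5, HFB 6 and CTL 14 (0.10, SE 0.24).

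Counting error differed between the members. At the mean of 38.6 counts per library of Cdc42ep3, counting alone gives a coefficient of variation of 16.1%, against 12.2% for Cdc42ep5, 7.80% for Cdc42ep2, 6.51% for Cdc42ep4, 6.16% for Cdc42ep1 and 3.97% for Cdc42. The coefficients measured over the CPM of the 6 libraries of a diet were larger than this for every member in both diets. That of Cdc42 was 38.0% with HFB and 20.1% with CTL, that of Cdc42ep2 32% and 10.7%, and that of Cdc42ep5 31.9% and 15.2%. Those of Cdc42ep3 were 21.9% and 29.9%, those of Cdc42ep4 17.3% and 23.7%, and those of Cdc42ep1 13.9% and 9.3%. Choosing Cdc42ep1 for groups that do not overlap favours a small spread within the diets, so nothing is read from its low values. The percentages from counting alone cover counting error only, as does the floor of 3 counts, because copies made by PCR were not told apart.

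A ratio of counts within a library involves no scaling between libraries. Cdc42ep1 had a median of 0.41 counts per Cdc42 count in the HFB libraries (0.32 to 1.48) and of 0.33 in the CTL libraries (0.26 to 0.58), so on this measure the diet groups overlapped. The highest ratio was that of HFB 6, where Cdc42 was lowest. Gene lengths were not used, so levels of different members are not ranked.

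**Figure D2:**
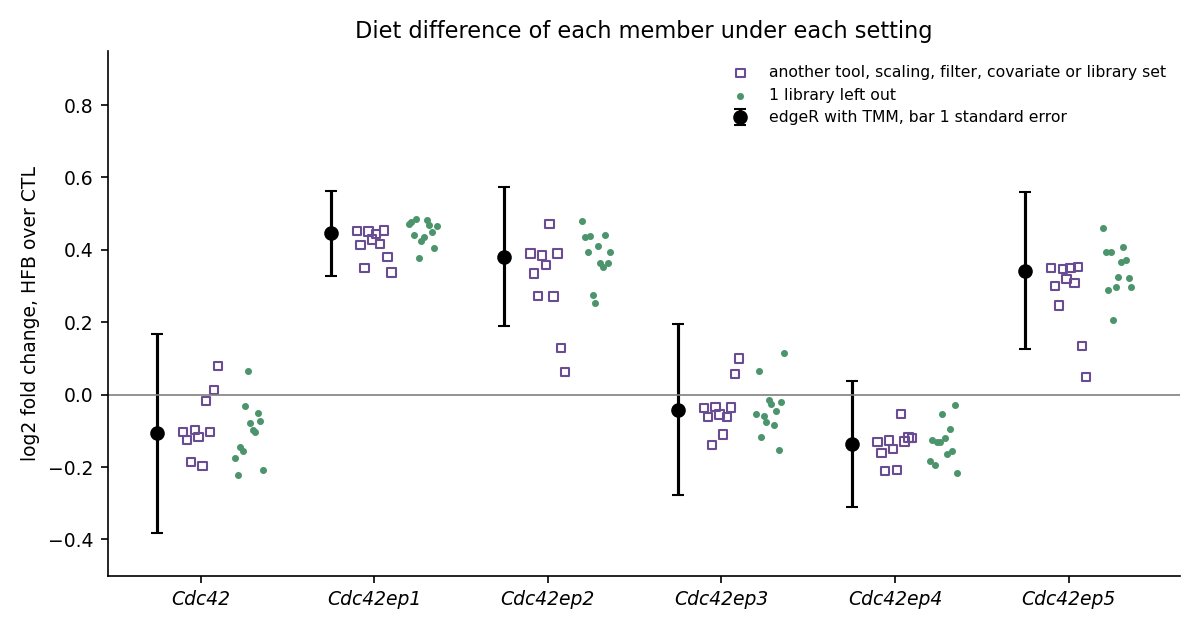
The y axis gives the log2 fold change of HFB over CTL for each member on the x axis, with the edgeR value and 1 standard error in black, the other settings as open squares and the fits without 1 library as green points. Cdc42ep2 and Cdc42ep5 stayed above 0 and Cdc42ep4 below 0 in all settings plotted, while Cdc42 and Cdc42ep3 lay on both sides. Cdc42ep1 also stayed above 0, which for its green points follows from choosing it for groups without overlap. The lowest squares of Cdc42ep2 (0.06) and Cdc42ep5 (0.05) are the fits without HFB 5, HFB 6 and CTL 14.

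The members differed in the libraries that stood apart. Cdc42 and Cdc42ep4 each had their lowest HFB value in HFB 6 and their lowest CTL value in CTL 14, while in HFB 5 Cdc42 was low and Cdc42ep4 was near its HFB median (85.9 CPM). Cdc42ep1, Cdc42ep2 and Cdc42ep5 were high in HFB 5 and HFB 6 and within the range of the other CTL libraries or just under it in CTL 14 (88.4, 54.2 and 18.3 CPM). To show how the start regions of these members are composed, the 100 bases before the start of 4 members are printed from the RefSeq promoter table (build GRCr8), 5′ to 3′ on the strand of the gene, with each CG in capitals. The table held 5 of the 6 members. Cdc42ep3 was left unprinted, with its CG count given below, and Cdc42ep2 is named only.
Cdc42, chr5:154876512-154876611, minus strand: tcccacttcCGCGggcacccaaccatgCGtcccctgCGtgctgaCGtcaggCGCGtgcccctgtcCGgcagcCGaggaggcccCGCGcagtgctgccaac
Cdc42ep4, chr10:99296343-99296442, minus strand: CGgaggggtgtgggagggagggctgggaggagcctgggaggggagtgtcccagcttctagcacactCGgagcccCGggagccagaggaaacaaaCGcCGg
Cdc42ep1, chr7:112279963-112280062, plus strand: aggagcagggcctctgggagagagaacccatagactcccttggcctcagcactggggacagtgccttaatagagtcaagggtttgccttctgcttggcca
Cdc42ep5, chr1:79109855-79109954, plus strand: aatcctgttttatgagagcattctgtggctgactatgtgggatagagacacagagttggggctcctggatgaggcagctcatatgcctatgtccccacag

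The windows of Cdc42 and Cdc42ep4 held 25 and 15 CG in the 250 bases before the start, and those of Cdc42ep1 and Cdc42ep5 held 4 and 1, where the median over the windows of 27457 genes was 6. Cdc42ep3, whose highest value was in CTL 14, had 25. At least as many CG as in the Cdc42 window were found in 10.4% of all windows, and as in the Cdc42ep5 window in 92.5%. The letters GGGCGG, searched on both strands with CCGCCC as their complement, occurred once in the Cdc42 window and 5 times in that of Cdc42ep3, and not in those of Cdc42ep1, Cdc42ep4 and Cdc42ep5, and 32.4% of all windows hold them. The starts used for Cdc42, Cdc42ep1, Cdc42ep4 and Cdc42ep5 lie inside the annotated span of the gene, so other transcripts begin further out, and that of Cdc42ep3 does not. The windows of those members may thus hold sequence from within the gene. Which start was used in the gland was not measured. A relation between CG counts and the members' levels was not tested.

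The genes whose log2 CPM followed each member most closely over the 12 libraries are given with Pearson's r as a description, first over all libraries and then over the 9 without HFB 5, HFB 6 and CTL 14. Cdc42 was most like Irak1, a kinase of interleukin-1 and Toll-like receptor signalling (r = 0.993 and 0.831), Kpnb1, the nuclear import receptor importin beta (0.991 and 0.724), and Arl1, a small GTPase of the Golgi (0.990 and 0.586). Cdc42ep4 was most like H19, an imprinted long non-coding RNA (0.914 and 0.829), Fhl1, a LIM domain protein of muscle (0.893 and 0.689), and Kif13a, a kinesin (0.886 and 0.751). For each of these 6 genes r was lower over the 9 libraries.

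Cdc42ep1 was most like 2 genes of the mitochondrial respiratory chain, Uqcr11 of complex III (r = 0.926 and 0.831) and Cox6a1 of complex IV (0.922 and 0.849), and C19h19orf53 (0.910 and 0.865). Cdc42ep2 was most like Polr2e, a subunit of RNA polymerases (0.942 and 0.683), Lamtor5 of the lysosomal Ragulator complex (0.942 and 0.843) and S100a16, a calcium-binding protein (0.927 and 0.662). Cdc42ep5 was most like Adissp, an adipose-secreted signalling protein (0.923 and 0.793), Timp2, an inhibitor of matrix metalloproteinases (0.917 and 0.821), and Igfbp6, which binds insulin-like growth factors (0.910 and 0.790). Cdc42ep3 was most like Caskin1 (0.892 and 0.886), Mal, a membrane protein of myelin and epithelia (0.834 and 0.907), and Yrdc (0.803 and 0.812), and its likeness did not rest on the 3 libraries.

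Because of Uqcr11 and Cox6a1, a list of 73 further nuclear genes of oxidative phosphorylation was drawn up after those genes had been seen, and it is given without a test. The mean log2 CPM of this list was 8.06 ± 0.22 (SD, n = 6) in the HFB libraries and 7.80 ± 0.15 (SD, n = 6) in the CTL libraries. Over the 12 libraries Cdc42ep1 gave r = 0.79 and Spearman's coefficient = 0.74 with it, r = 0.63 without HFB 3 and HFB 5, the libraries farthest from its median, and r = 0.66 over the 9 libraries. Within the diets r was 0.83 in the HFB and 0.27 in the CTL libraries. Cdc42ep5 had r = 0.76 with the list (0.81 with HFB, 0.43 with CTL and 0.51 over the 9 libraries) and Cdc42ep2 0.59 (0.67 with HFB, -0.56 with CTL and 0.23 over the 9), and Cdc42, Cdc42ep3 and Cdc42ep4 between -0.26 and 0.06. Cdc42ep1 and the list were both highest in HFB 5, HFB 3 and HFB 6, all of them HFB libraries. Because Cdc42ep1 was chosen for its diet contrast and the list for genes like it, nothing further is read from the r over the 12 libraries. The part of these mitochondrial genes in the diet difference of Cdc42ep1 was not tested.

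A list of 73 ribosomal protein genes, added at the same time, summed to 91033 CPM in HFB 6, 66182 CPM in CTL 14 and 63241 CPM in HFB 5, and to between 34393 and 51053 CPM in the other 9 libraries. The 3 libraries with the least Cdc42 were therefore those with the most ribosomal protein RNA. Among the other 9 libraries Cdc42 gave r = -0.31 with the mean log2 CPM of this list and r = -0.15 with the first principal component. What sets HFB 5, HFB 6 and CTL 14 apart was not tested.

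**Figure D3:**
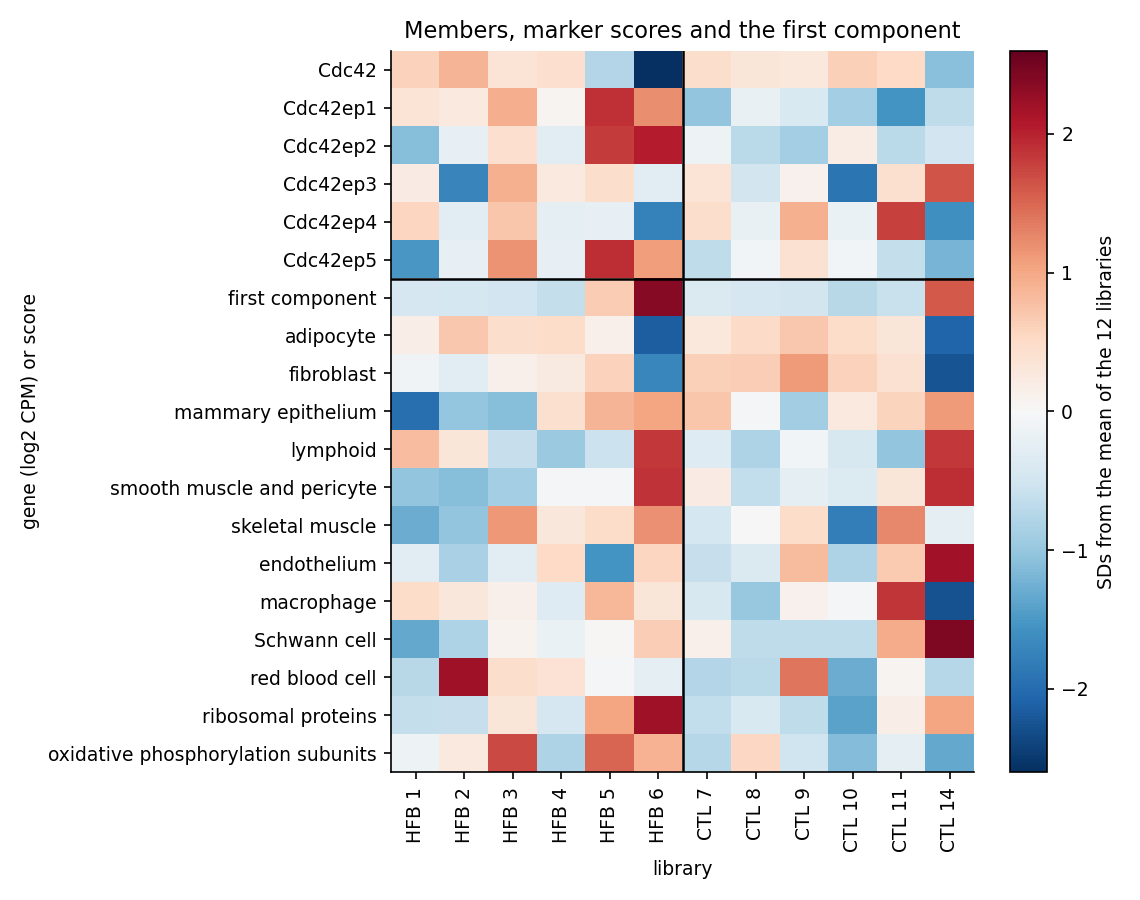
Rows are the 6 members (log2 CPM), the first principal component and the scores (mean log2 CPM of a list), columns are the 12 libraries, and the color gives the distance from the row's mean in SDs. HFB 6 and CTL 14 are low in Cdc42, Cdc42ep4, adipocyte and fibroblast markers and high in lymphoid and smooth muscle markers, and HFB 5 is low in Cdc42 and high in Cdc42ep1, Cdc42ep2 and Cdc42ep5.

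The relation of each member to the tissue's cell types was tested with the 10 marker scores (60 relations) and between the members (15 pairs), 75 relations in all, with a permutation test of Pearson's r and of Spearman's coefficient. None passed an adjusted p of 0.05 over the 12 libraries, where 16 Pearson and 4 Spearman relations had an unadjusted p under 0.05. The 16 include Cdc42ep1 with Cdc42ep5 and with Cdc42ep2, which are not read, since Cdc42ep1 was chosen for its diet contrast. The relations of Cdc42ep1 entered the correction with the rest. The lowest adjusted p was 0.0555, for Cdc42 and the adipocyte score, and the lowest adjusted p of Spearman's coefficient was 0.636. For this relation r was 0.88 over the 12 libraries, 0.94 within HFB and 0.95 within CTL. HFB 6 and CTL 14 lie apart from the other libraries of their diets in the adipocyte score. Each of these values includes at least 1 of the pair, and without both r was 0.48. Over the 9 libraries without HFB 5, HFB 6 and CTL 14 the r of Cdc42 with the adipocyte score was 0.03 (Spearman's coefficient = -0.32, two-sided exact permutation p = 0.948 for r and 0.410 for Spearman's coefficient).

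The 9 libraries gave 0 relations past the adjusted threshold among the 75, and 5 Pearson and 4 Spearman relations at an unadjusted p under 0.05. Cdc42ep1 takes part in 2 of these 5 Pearson relations, and the same 2 are among the 4 Spearman relations. It was chosen for its diet contrast, which the permutation does not hold fixed, so its r is given as a description with no p. Over the 9 libraries it was -0.82 with the smooth muscle and pericyte score and -0.74 with the mammary epithelial score. Within the 6 libraries of each diet r was 0.43 with HFB and -0.22 with CTL for the first, and 0.54 and -0.51 for the second, values that include HFB 5, HFB 6 and CTL 14. Over all 12 libraries r was -0.07 and -0.12, so over both diets r depends on which libraries are left out. Without the 2 libraries farthest from the median of the score it was -0.42 for the first (without HFB 6 and CTL 14). For the second it was 0.12 (without HFB 1 and HFB 3). Over the 9 libraries each diet has under 6 libraries, and no r of its own is given. Cdc42 with the fibroblast score (r = -0.71, exact permutation p = 0.0323), Cdc42ep3 with the skeletal muscle score (r = 0.74, exact permutation p = 0.0245) and Cdc42ep4 with the macrophage score (r = 0.77, exact permutation p = 0.019) had adjusted p-values of 0.471 to 0.485. Their Spearman coefficients were -0.65, 0.72 and 0.47, with exact permutation p of 0.0666, 0.0369 and 0.213. Cdc42ep3 with the Schwann cell score had a Spearman coefficient of 0.77 over the 9 libraries (exact permutation p = 0.0214; r = 0.46, p = 0.213) and of 0.69 over the 12 (permutation p = 0.0173, adjusted p = 0.636; r = 0.62, p = 0.0353, adjusted p = 0.191). None of these 4 associations of a member with a cell type held after correction. The epithelial score averaged 5.04 ± 1.09 (SD, n = 6) in the HFB and 5.55 ± 0.62 in the CTL libraries, and the smooth muscle and pericyte score 5.46 ± 0.87 and 5.77 ± 0.70. With the epithelial, skeletal muscle and lymphoid scores as covariates the log2 fold change was -0.20 (SE 0.14) for Cdc42 and 0.44 (SE 0.12) for Cdc42ep1. It was 0.47 (SE 0.16) for Cdc42ep2, -0.11 (SE 0.23) for Cdc42ep3, -0.21 (SE 0.12) for Cdc42ep4 and 0.35 (SE 0.20) for Cdc42ep5. The share of a member's level that comes from any of these cell types was not tested.

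Between the members, the pair with the lowest adjusted p was Cdc42ep2 and Cdc42ep5 (r = 0.80, permutation p = 0.00194, adjusted p = 0.0717; Spearman's coefficient = 0.57, p = 0.0565, 12 libraries). Without HFB 5 and HFB 6, the libraries farthest from the median of Cdc42ep2, r was 0.57, over the 9 libraries it was 0.60 (exact permutation p = 0.0852), and over the 6 libraries of each diet it was 0.90 with HFB and -0.19 with CTL. Cdc42 and Cdc42ep4 gave r = 0.72 (permutation p = 0.00904, adjusted p = 0.1; Spearman's coefficient = 0.35, p = 0.266), with 0.82 in the HFB and 0.75 in the CTL libraries. Without HFB 6 and CTL 14 their r was 0.14, and over the 9 libraries -0.29 (exact permutation p = 0.454), so the relation rests on that pair. The r of Cdc42ep1, given with no p for the reason above, was 0.71 with Cdc42ep5 and 0.70 with Cdc42ep2 over the 12 libraries, and 0.34 and 0.18 over the 9. Within the diets it was 0.85 with HFB and 0.44 with CTL for Cdc42ep5, and 0.86 and -0.27 for Cdc42ep2. Cdc42ep1, Cdc42ep2 and Cdc42ep5 were all high in HFB 5 and HFB 6, and no pair passed the threshold.

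**Figure D4:**
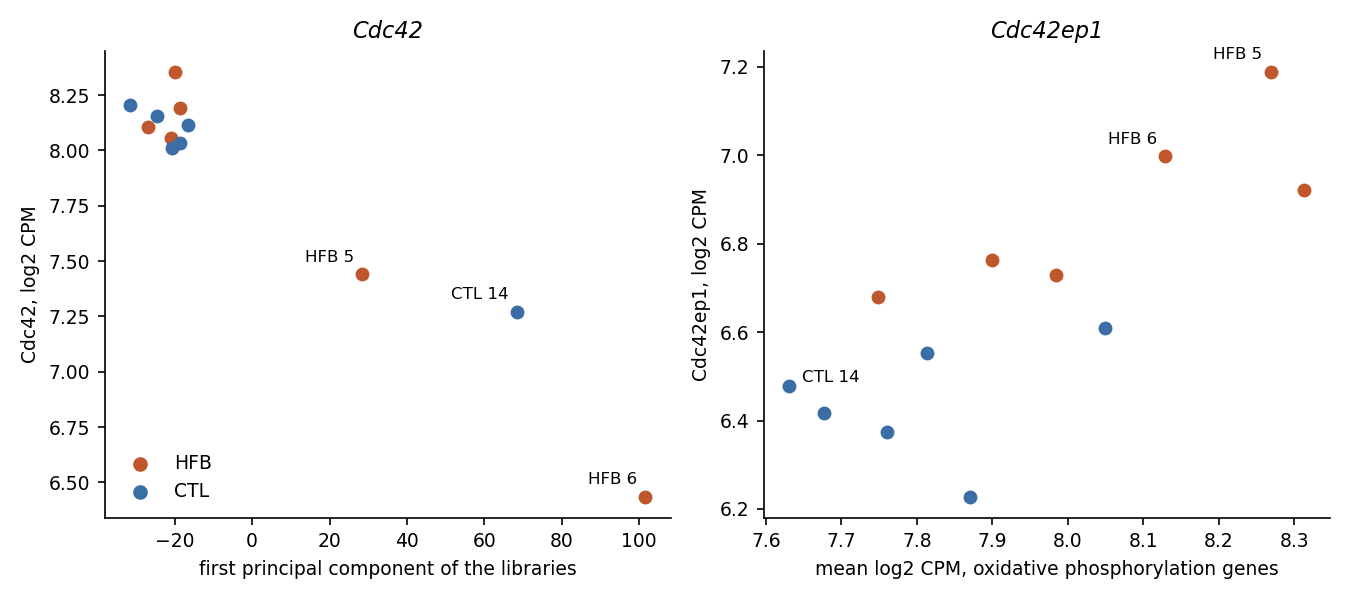
The left panel plots the log2 CPM of Cdc42 against the first principal component of the libraries, and the right panel that of Cdc42ep1 against the mean log2 CPM of 73 oxidative phosphorylation genes, with 1 point per library, HFB in orange and CTL in blue. Cdc42 is lower in HFB 5, CTL 14 and HFB 6 and level among the other 9 libraries. Cdc42ep1 gave r = 0.79 with the list over the 12 libraries, 0.83 within HFB and 0.27 within CTL.

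The genes that act on or with Cdc42 were followed in 4 lists of 64 genes, of which 57 were in the table and 42 passed the filter. None of the 42 was called between the diets by edgeR, as none of the 9382 genes was. Fitted levels with HFB were higher for 20 and lower for 22, beside 4694 of all 9382 genes higher. None of the 42 had groups that did not overlap, where the shares over all genes were 0.032% (HFB higher) and 0.0746% (CTL higher). At shares this low nothing is read from that 0. The split rests on single libraries, with 9 of 42 higher without HFB 6 and 25 of 42 without CTL 14. Without HFB 5, HFB 6 and CTL 14 it was 22 of 43. With library totals alone 13 of 42 were higher, beside 3063 of all 9382 genes. That scaling moves the median of all genes tested to -0.10. All adjusted p-values given for these genes below are 0.999 (edgeR's quasi-likelihood test, Benjamini-Hochberg over 9382 genes).

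Exchange factors load Cdc42 with GTP. Of the 16 listed, 9 passed the filter, 5 with a higher and 4 with a lower HFB level, and the median log2 fold change was 0.10 against 0.00 over all genes tested. The median was -0.15 without HFB 6, -0.12 without HFB 1 and -0.13 with the epithelial, skeletal muscle and lymphoid scores as covariates, and 0.30 without CTL 14, so its sign is not settled. The named genes were the scaffold and exchange factor Itsn1 (log2 fold change -0.36, SE 0.41), Fgd1 (-0.34, SE 0.17) and Arhgef6 (0.33, SE 0.71), which had no counts in HFB 6. Fgd1 was below the CTL median in all 6 HFB libraries, with a median of 15.3 CPM (12.9 to 20.2 CPM) against 20.3 CPM (15.7 to 24.0 CPM), and the groups overlapped. Itsn1 was lowest in HFB 6 (10.4 CPM) and CTL 14 (17.3 CPM), as Cdc42 was.

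GTPase-activating proteins and GDIs (inhibitors of GDP release) turn Cdc42 off or hold it in the cytosol. Of 10 listed, 6 passed the filter, 3 in each direction, with a median log2 fold change of 0.03. Without HFB 6 it was -0.14, with 1 of 6 higher, and without CTL 14 it was 0.25, with 4 of 6 higher. The named genes were Arhgdib (0.50, SE 0.70), the GDI of blood cells, Arhgap31 (-0.40, SE 0.52) and the ubiquitous GDI Arhgdia (0.33, SE 0.24). Arhgdib and Arhgdia were highest in HFB 6 (929 and 1567 CPM) and, among the CTL libraries, in CTL 14 (775 and 1026 CPM), and Arhgap31 was lowest in these libraries, at 0.80 and 4.58 CPM.

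The other effectors of Cdc42 include the Pak and Cdc42bp kinases, Wasp proteins, Iqgap scaffolds and Par6 polarity proteins. Of 25 listed, 17 passed the filter, 7 with a higher and 10 with a lower HFB level, and the median log2 fold change was -0.12. Without CTL 14 it was 0.07, with 10 of 17 higher, and without HFB 6 it was -0.17, with 2 of 17 higher. The named genes were the kinase Cdc42bpa (-0.39, SE 0.36), the blood cell actin regulator Was (0.37, SE 0.80) and Fnbp1 (0.31, SE 0.56), which bends membranes. Was reached 90.2 CPM in HFB 6 and 82.8 CPM in CTL 14, with diet medians of 12.9 and 8.64 CPM.

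Septins, the second partner of the Borgs, were all listed in the table, and 10 of 13 passed the filter, 5 in each direction with a median log2 fold change of 0.00. The median was 0.19 without CTL 14, and 3 of 10 were higher without HFB 6 and 2 of 10 without CTL 7. Scaling by library totals alone also gave 2 of 10, where only 3063 of all 9382 genes tested were higher. Septin2, Septin7, Septin8 and Septin9, which many cell types express, had log2 fold changes of -0.16 (SE 0.20), -0.03 (SE 0.12), -0.01 (SE 0.11) and 0.17 (SE 0.26), and were named beside the rule after their values had been seen. Under the rule Septin10 (-0.52, SE 0.57), Septin5 (0.46, SE 0.21) and Septin1 (0.19, SE 1.22) were named. Septin5 was above the CTL median in all 6 HFB libraries, with a median of 24.2 CPM (20.6 to 34.9 CPM) against 18.0 CPM (13.1 to 29.1 CPM), and the groups overlapped. Septin1 reached 164 CPM in HFB 6 and 183.1 CPM in CTL 14, and its diet medians were 14.5 and 5.97 CPM.

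The highest values of Was, Septin1, Arhgdib and Arhgdia within each diet were in HFB 6 and CTL 14, the libraries with the highest lymphoid marker sums, and the part of lymphoid RNA in them was not tested.

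**Figure D5:**
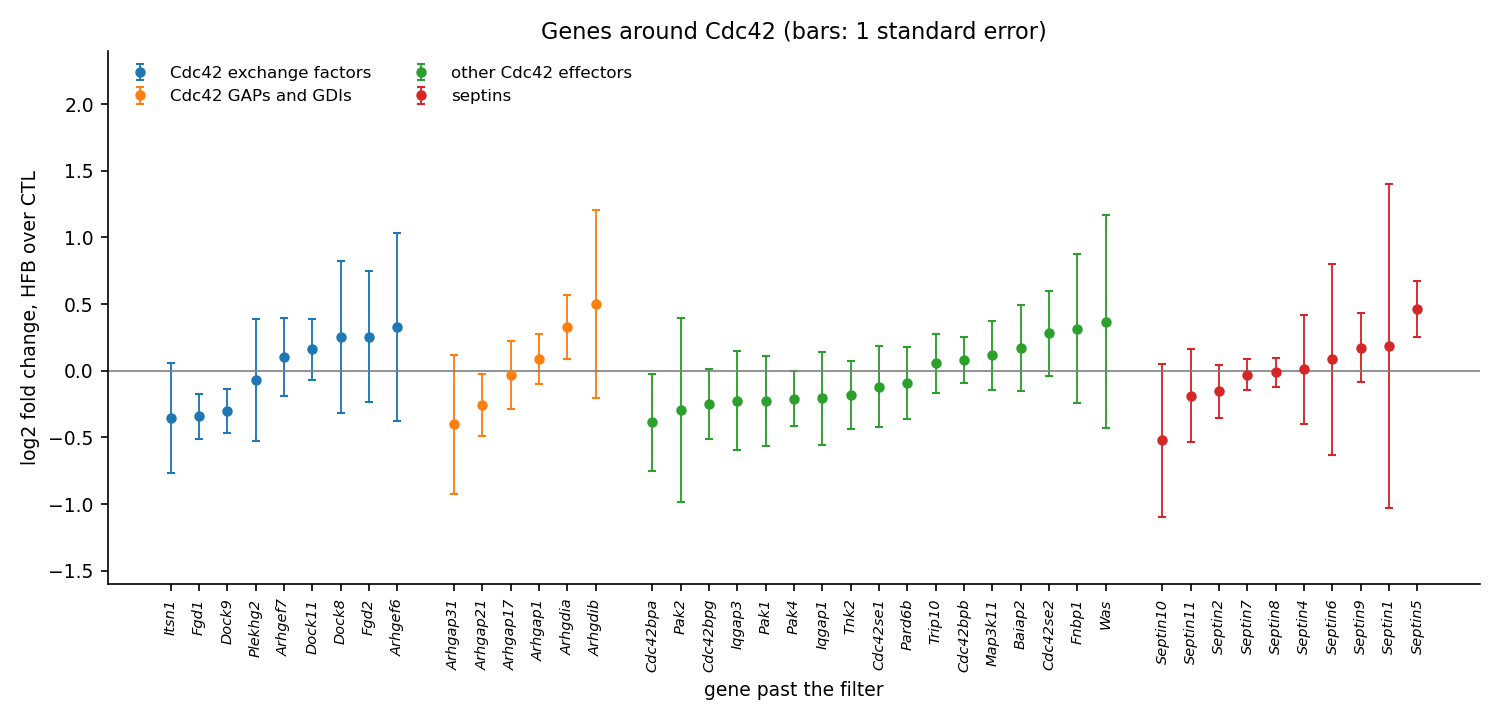
Each point is 1 of the 42 genes past the filter, with the 4 lists in different colors and ordered by value, and the y axis gives the log2 fold change of HFB over CTL with 1 standard error. No gene passed the adjusted threshold, and the widest bars are those of Septin1 (SE 1.22) and Was (SE 0.80).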

How the data were processed

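The authors deposited raw counts of reads per gene, 1 column for each of 12 libraries labelled mammary gland, without normalization. Per the submitters' processing notes bcl2fastq, CASAVA 1.8, TopHat, DESeq and the rn4 build were used, with no roles given; the counting program, annotation and use of strand are not given in the sources used here, so reads of close copies or of overlapping or antisense genes could have been shared. Symbols for 16351 of 16511 Entrez identifiers came from a RefSeq table (GRCr8), whose coordinates served only to place promoter starts within genes. Promoter windows came from the RefSeq promoter table of GRCr8.

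The diets were compared over 9382 genes by the quasi-likelihood test of edgeR 4.0.16 (R 4.3.3), after TMM scaling and a filterByExpr filter at 10 counts, and p-values were adjusted by Benjamini-Hochberg (threshold 0.05). Relations used log2 CPM (prior count 2), 100000 resamples over 12 libraries or all 362880 permutations over 9, in Python 3.11.15 with scipy 1.17.1. No 2 libraries of a diet agreed within sampling noise (lowest chi-square per degree of freedom 6.69 over 30 pairs).

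Alternatives were DESeq2 1.42.0, limma 3.58.1 (voom with quality weights), other normalizations, filters and a prior count of 0.5, epithelial, muscle and lymphoid scores as covariates, and leaving out each library. The first principal component as a covariate, leaving out HFB 5, HFB 6 and CTL 14, no filter for the groups without overlap, and the oxidative phosphorylation and ribosomal protein lists were chosen after seeing the data. The members and lists were chosen with earlier results of these data known. The text names all members, the 3 genes most like each, and from each list the 3 with the largest fold change, since none passed the threshold. Listed genes that were not analysed here count only towards the numbers listed.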

Additional observations from a re-analysis of the deposited data

Results flagged for a closer look

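In 9 of 40 groups of 6 libraries examined (6 members, 12 scores, the first principal component and the total counts, in each diet), the highest or lowest library lay farther from its neighbour than a gap rule allows. Chance gives about 1 in 20 such groups, or 2.0 of 40, and the measures are not independent.

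Of the members, Cdc42 stood apart in CTL 14, at 153.54 CPM against 257.38 CPM for the next CTL library. CTL 14 also had the lowest adipocyte score (9.2105, next 10.721) and fibroblast score (10.228, next 11.214) of its diet, the highest lymphoid score (6.7728, next 2.4542), and a first component of 68.49, next to -16.6. HFB 6 had the lowest adipocyte score of its diet (9.1754, next 10.629) and the highest smooth muscle and pericyte score (7.0589, next 5.585). The total of 2320267 counts in HFB 1 lay below the next HFB total of 2629159, and the total of 2944680 counts in CTL 7 above the next CTL total of 2570080. Whether the composition of these glands or their RNA sets the Cdc42 value of CTL 14 was not tested.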

How the results depend on the processing

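The count of 0 genes called between the diets held in edgeR under every normalization and filter tried, with both sets of covariates, in DESeq2 and limma-voom and whichever 1 of the 12 libraries was left out, with 135 to 945 genes at an unadjusted p under 0.05. The count of 10 genes without overlap changed more, to 18 with upper-quartile normalization, 20 with library totals alone, 16 with no filter and 139 without HFB 5, HFB 6 and CTL 14, and to between 11 (without HFB 5) and 47 (without CTL 14) when 1 library was left out, with 17 or more for each library other than HFB 5. Fewer libraries make it easier for groups not to overlap. The 0 relations past the threshold became 2 without CTL 9 (Cdc42ep2 with Cdc42ep5 and Cdc42 with the adipocyte score) and 2 without HFB 1 (Cdc42 with the adipocyte score, and a relation of Cdc42ep1, not read as a call since that gene was chosen for its diet contrast), and lay between 0 and 2 over the 12 leave-outs; the cause was not tested.

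Cdc42ep2, Cdc42ep4 and Cdc42ep5 kept the sign of their log2 fold change in 10 alternatives and 12 leave-outs. Their values nearest 0, 0.06 (SE 0.13), -0.03 (SE 0.17) and 0.05 (SE 0.19), lay within 1 standard error of it. The settings reuse the same counts, so a kept sign is not repeated evidence. Cdc42ep1 kept its sign too, but it was chosen for groups that do not overlap. Leaving out 1 library could hardly turn such a sign, so nothing is read from its kept sign. Cdc42ep1 ranged from 0.34 to 0.45 over the alternatives and from 0.38 to 0.48 over the leave-outs, Cdc42ep2 from 0.06 to 0.47 and from 0.25 to 0.48, and Cdc42ep5 from 0.05 to 0.35 and from 0.21 to 0.46; limma-voom gave 0.13 for both Cdc42ep2 and Cdc42ep5. Cdc42ep4 ranged from -0.21 to -0.05 and from -0.22 (without CTL 14) to -0.03 (without CTL 11). Cdc42 changed sign in 2 alternatives and 1 leave-out, and Cdc42ep3 in 2 and 2. With 3 counts at 1.02 to 1.29 CPM, depth limits Cdc42ep3 most. The order of the members' levels was not tested, since no gene lengths of the build of the counts were used here. No paired analysis was possible because no HFB library has a CTL library of the same number.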
